A study of Schizosaccharomyces pombe with 8 samples.

Results

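Hot regions joined between chromosomes are pairs of DNA ends that lie on 2 different chromosomes of fission yeast, Schizosaccharomyces pombe, and that the authors' deposited tables both class as hot. The members were taken as every line of the Rec27-GFP tables in which the chromosomes of the ends differ and both ends are hot, and lines with both ends within 500 bp of each other were counted once, as 1 joining event. Lines linked in this way may be copies of a junction or junctions too close to tell apart. The members are 2724 of 35751 events in the interacting library (7.62%, exact binomial 95% interval 7.35% to 7.90%) and 5468 of 56313 events in the de-crosslinked library (9.71%, 9.47% to 9.96%). They come from 6261 of 101984 deposited lines in the interacting library, compared with 11376 of 123434 in the de-crosslinked library. Runs of consecutive hot ends over both tables gave 451 hot regions, of which chromosome I holds 201, chromosome II 154 and chromosome III 96. Of the 451 regions, 446 had a member event in the interacting library versus 451 in the de-crosslinked library.

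The study immunoprecipitated a tagged component of the meiotic chromosome axis and ligated the bound DNA, to ask which places along meiotic chromosomes are held together. The interacting library is Rec27-GFP chromatin ligated on beads while still crosslinked, and the de-crosslinked library is the same kind of precipitate ligated after its crosslinks and proteins had been removed. Both carry pat1-114, a temperature-sensitive allele used to start meiosis synchronously, and rec12D, the deletion of the gene for the protein that makes meiotic DNA breaks, so that neither culture makes these breaks. Cells were starved of nitrogen for about 18 h, entered meiosis at 34 °C and were harvested at 3.5 h, then fixed with 1% formaldehyde. Each group has 1 library, so no difference below has a replicate check, and Fisher's exact tests compare these 2 libraries, not the conditions. Intervals cover counting error only. The other 6 samples of the series were not analysed here.

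In fission yeast meiosis, Rec27 forms the linear elements together with Rec10, Rec25 and Mug20. These are protein structures along the chromosomes that correspond to the lateral elements of the synaptonemal complex in other species. Rec25, Rec27 and Mug20 bind at high density at DNA break hotspots, and Rec12, the Spo11 homolog, makes the breaks there. Before the first meiotic division the telomeres of fission yeast are gathered at the spindle pole body and the nucleus is pulled back and forth through the cell, which brings chromosomes side by side.

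The sequences at the joined ends are shown first, because a feature of them recurs in the results below. They were read from the RefSeq assembly ASM294v3, each window is 121 bp long, and capitals mark the longest run made only of purines or only of pyrimidines. The first 2 windows are centred on the ends of an event found in both libraries, with 1 interacting and 2 de-crosslinked lines. It joins the pair of hot regions with most events in the interacting library. The next 2 belong to the largest event of the second pair in that order. The following 2 belong to the largest member event of the interacting library whose windows hold no base of a coding gene outside its coding sequence. The same limit was set for the first event, and it left out the event of that pair with most lines.
Between SPAC17A2.10C and SPAC17A2.11, chrI:3576703-3576823, + strand: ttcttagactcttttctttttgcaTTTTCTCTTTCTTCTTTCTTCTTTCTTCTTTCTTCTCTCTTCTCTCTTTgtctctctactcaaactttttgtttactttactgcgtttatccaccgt
In the noncoding RNA SPNCRNA.6808 between dis1 and pil1, chrIII:348064-348184, + strand: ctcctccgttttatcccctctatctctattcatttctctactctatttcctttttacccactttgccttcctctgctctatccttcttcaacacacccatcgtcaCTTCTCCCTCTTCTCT
In the noncoding RNA SPNCRNA.917 between SPAC17A2.10C and SPAC17A2.11, chrI:3576336-3576456, + strand: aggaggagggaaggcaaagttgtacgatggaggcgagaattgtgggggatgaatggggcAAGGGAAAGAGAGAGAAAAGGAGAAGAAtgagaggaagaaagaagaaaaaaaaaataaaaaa
In the noncoding RNAs SPNCRNA.1424 and SPNCRNA.5102 between rtn1 and but2, chrII:1265643-1265763, + strand: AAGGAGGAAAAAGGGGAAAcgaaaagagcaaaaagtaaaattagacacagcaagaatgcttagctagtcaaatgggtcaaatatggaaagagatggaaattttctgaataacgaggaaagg
Between SPAC29B12.14C and SPAC1039.01, chrI:5443666-5443786, + strand: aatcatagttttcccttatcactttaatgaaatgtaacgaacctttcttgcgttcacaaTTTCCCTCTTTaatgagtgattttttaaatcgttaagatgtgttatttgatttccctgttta
In the noncoding RNA SPNCRNA.388 beside mat1-Mc, chrII:2115746-2115866, + strand: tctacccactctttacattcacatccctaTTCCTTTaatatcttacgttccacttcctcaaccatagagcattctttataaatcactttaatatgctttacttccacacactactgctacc
The first window is 85.1% pyrimidines with a run of 49, and its partner on chromosome III is 84.3% pyrimidines. The window in SPNCRNA.917 is 87.6% purines with a run of 28, and its partner on chromosome II is 75.2% purines. The last 2 windows are less one-sided, with 62.0% and 69.4% pyrimidines.

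The 4 hot regions with most member events in the interacting library are shown by the 121 bp window that held most member ends of the 2 libraries, among windows with no base of a coding gene outside its coding sequence.
Region with SPAC17A2.10C and SPAC17A2.11, chrI:3575088-3575208, + strand: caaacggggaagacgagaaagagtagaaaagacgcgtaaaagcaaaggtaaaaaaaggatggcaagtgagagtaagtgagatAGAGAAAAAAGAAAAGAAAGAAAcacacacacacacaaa
Region of mug115 and esc1, chrI:1149927-1150047, + strand: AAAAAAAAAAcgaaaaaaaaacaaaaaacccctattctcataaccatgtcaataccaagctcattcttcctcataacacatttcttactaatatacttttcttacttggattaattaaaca
Region of ght6 and ght5, both for hexose transporters, chrIII:210096-210216, + strand: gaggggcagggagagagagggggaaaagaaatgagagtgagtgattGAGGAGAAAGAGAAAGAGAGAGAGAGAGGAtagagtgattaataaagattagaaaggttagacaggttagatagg
Region with SPBC1685.17 and fhn1, chrII:520613-520733, + strand: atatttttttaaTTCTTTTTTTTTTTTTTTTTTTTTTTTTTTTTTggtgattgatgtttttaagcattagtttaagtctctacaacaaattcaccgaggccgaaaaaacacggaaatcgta
The window in the SPAC17A2.10C region held 14 of the 105 member ends of its region in the interacting library versus 7 of 124 in the de-crosslinked library, and it is 81.8% purines. The window in the ght6 and ght5 region is 84.3% purines and held 6 of 83 interacting and 16 of 171 de-crosslinked ends. The window at the edge of the fhn1 region holds a run of 33 pyrimidines, nearly all T, and held 18 of 76 interacting and 11 of 157 de-crosslinked ends. The window at mug115 is balanced between purines and pyrimidines (51.2% pyrimidines) and held 8 of 88 interacting and 20 of 216 de-crosslinked ends.

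One fact about the libraries bears on every comparison: they share junctions. Of the 2724 member events of the interacting library, 24 had both ends within 20 bp of the ends of an event of the de-crosslinked library, against 0.308 expected if the ends of de-crosslinked events were joined independently. Within 100 bp it was 63 events against 3.37 expected, and within 500 bp 154 events (5.65%) against 39.0 expected. Joins between cold ends were shared too, with 15 of 8616 events within 20 bp against 0.0845 expected. The cause was not tested. Some results are given below also without all events found in both libraries within 500 bp. Lines were unevenly spread over events, with a median of 1 line per member event in both libraries and up to 90 lines in the interacting versus 53 in the de-crosslinked library. The tables do not name their genome build; few ends of all lines fell at starts of 50 bp words that are not unique in ASM294v3 (665 of 203968 ends in the interacting versus 543 of 246868 in the de-crosslinked library), against 1851 to 2787 interacting and 1815 to 2969 de-crosslinked ends when positions were moved by 100 or 1000 bp, and the largest position on chromosome II (4539826) lies past that assembly's 4539804 bp.

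Joining of hot ends across chromosomes was a smaller part of the interacting library than of the de-crosslinked library. The members were 7.62% of events in the interacting library versus 9.71% in the de-crosslinked library, a log2 odds ratio of -0.38 (two-sided Fisher's exact test, p = 6.732e-28). Among events that join hot to hot, 52.2% (50.9% to 53.6%) of 5215 in the interacting library versus 60.1% (59.1% to 61.1%) of 9098 in the de-crosslinked library lay between chromosomes. A lower share between chromosomes was not particular to hot pairs. With ends of any class, 19749 of 35751 interacting versus 34744 of 56313 de-crosslinked events lay between chromosomes. Of these events between chromosomes, 13.8% (13.3% to 14.3%) were members in the interacting versus 15.7% (15.4% to 16.1%) in the de-crosslinked library. Hot ends were also a smaller share of all ends, with 35.5% in the interacting versus 38.7% in the de-crosslinked library.

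Set against random joining of each library's own ends, the same events were lower in the interacting library by the pool of all ends and higher by the pool of ends joined between chromosomes. With all ends of the library as the pool, hot-hot events between chromosomes came to 0.963 times the expected number in the interacting library (Poisson 95% interval 0.928 to 1.00) and to 1.04 times in the de-crosslinked library (1.01 to 1.06). Hot-cold events between chromosomes came to 0.813 times with interacting and 0.941 times with de-crosslinked ends, and cold-cold events to 0.911 times with interacting and 0.999 times with de-crosslinked ends. All 3 classes were thus lower against expectation in the interacting library, and hot-hot events were the least reduced. With only the ends of events between chromosomes as the pool, hot-hot events came to 1.12 times the expected number in the interacting library (1.08 to 1.17) and 1.06 times in the de-crosslinked library (1.03 to 1.09), and hot-cold events to 0.934 times with interacting and 0.963 times with de-crosslinked ends.

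**Figure D1:**
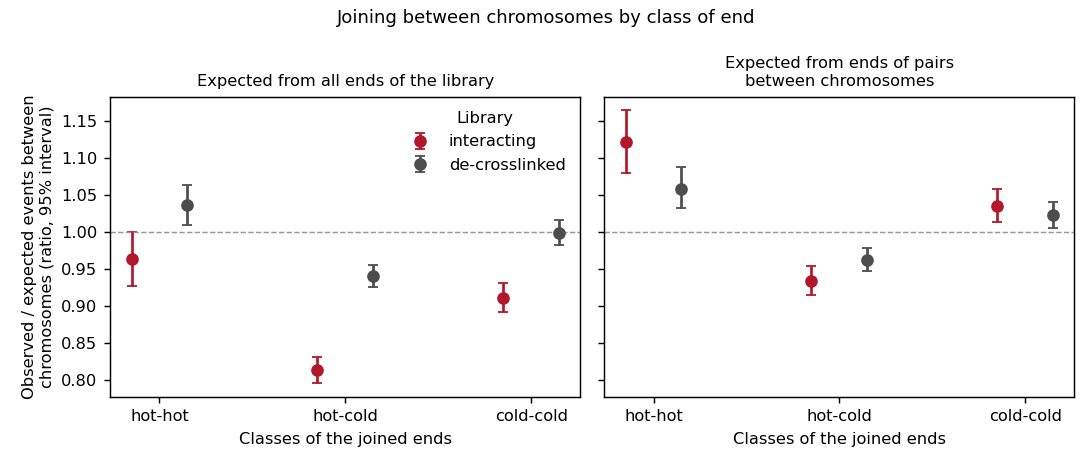
Observed over expected number of events between chromosomes (y axis, ratio with 95% Poisson interval) for hot-hot, hot-cold and cold-cold ends (x axis) in the interacting (red) and de-crosslinked (grey) library; the dashed line marks a ratio of 1. On the left, where all ends of a library form the pool, the interacting library lies below the de-crosslinked library in every class; on the right, where only ends of events between chromosomes form the pool, hot-hot joining lies above 1 in both, at 1.12 for interacting and 1.06 for de-crosslinked.

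Put as odds within events that join 2 chromosomes, a hot end had a hot partner more often than a cold end did. The log2 odds ratio of hot with hot, pooled over the 3 pairs of chromosomes, was 0.41 ± 0.04 in the interacting library versus 0.23 ± 0.03 in the de-crosslinked library (counting standard error). The difference between the libraries was 0.19 ± 0.06 (95% interval 0.08 to 0.29). For chromosomes I and II the log2 odds ratio was 0.40 ± 0.06 in the interacting versus 0.20 ± 0.05 in the de-crosslinked library. For chromosomes I and III it was 0.55 ± 0.08 (interacting) and 0.24 ± 0.06 (de-crosslinked). For chromosomes II and III it was 0.25 ± 0.10 (interacting) and 0.27 ± 0.07 (de-crosslinked). Whether the 3 pairs of chromosomes differ from each other was not tested. Without the events found in both libraries the pooled values were 0.37 ± 0.05 (interacting) and 0.21 ± 0.03 (de-crosslinked).

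With only the ends of events between chromosomes as the pool, the ratio to expectation was highest between the strongest hot regions. Regions were ranked by the number of event ends they had in the other library and split into 3 classes of strength, so that the ranking did not use the counts of the library measured. The ranking is still not independent of that library, because the regions come from both tables and the libraries share junctions. This result was not recomputed without shared events. Events joining 2 regions of the strongest class came to 1.28 times the expected number in the interacting library (1294 events, interval 1.21 to 1.35) and to 1.17 times in the de-crosslinked library (2803 events, 1.12 to 1.21). Events joining 2 regions of the weakest class came to 0.737 times (36 interacting events, 0.516 to 1.02) and 0.980 times (79 de-crosslinked events, 0.776 to 1.22). Cold partners were under-represented at the strongest regions, at 0.899 times the expected number for interacting (0.875 to 0.924) and 0.938 times for de-crosslinked events (0.920 to 0.956), and not at the weakest, at 1.03 times for interacting (0.980 to 1.09) and 1.03 times for de-crosslinked events (0.986 to 1.07).

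The joined hot ends lay in strand-asymmetric DNA more often than other hot ends. A window of 121 bp around an end is called one-sided here when at least 75% of its bases on 1 strand are purines or at least 75% are pyrimidines, a limit chosen after the sequences above were seen. Around member ends, 10.4% of windows were one-sided in the interacting library (566 of 5448, exact interval 9.59% to 11.2%) and 8.69% in the de-crosslinked library (950 of 10936, 8.17% to 9.23%). Around hot ends joined to a cold end of another chromosome it was 5.95% of interacting (5.45% to 6.47%) and 5.82% of de-crosslinked ends (5.46% to 6.20%), and around hot ends joined within a chromosome 5.62% of interacting (5.203% to 6.05%) and 6.32% of de-crosslinked ends (5.96% to 6.70%). Cold ends of events between chromosomes were one-sided in 0.909% of interacting and 0.717% of de-crosslinked windows. Of consecutive 121 bp windows tiled along the genome, 0.350% were one-sided, and of those centred in hot regions 1.13%. Ends that lie in the same region share their sequence, so these intervals are too narrow. Outside the 10 hot regions with most member events in the interacting library, 6.73% (6.03% to 7.48%) of member windows were one-sided in the interacting library versus 5.60% (5.15% to 6.07%) in the de-crosslinked library, against 3.82% of interacting (3.40% to 4.27%) and 3.87% of de-crosslinked windows (3.56% to 4.19%) for hot ends joined to cold ends of other chromosomes. The mean G+C content of member windows was 35.3% in the interacting versus 36.5% in the de-crosslinked library, beside 36.1% over all windows.

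One-sided ends were also joined to each other. In 73 member events of the interacting library both ends were one-sided, against 29.3 expected (2.49 times, interval 1.95 to 3.13). The expected number comes from the shares at the first and second ends, with all pairs of chromosomes pooled. Differences between chromosomes in these shares were not accounted for. In the de-crosslinked library it was 87 events against 40.5 expected (2.15 times, 1.72 to 2.65). Purines could be paired with purines on the + strand or with pyrimidines: events of the same kind came to 2.19 (interacting) and 2.14 (de-crosslinked) times and events of opposite kinds to 2.79 (interacting) and 2.16 (de-crosslinked) times the expected number. Outside the 10 regions named above the ratio was 2.29 (16 interacting events, 1.31 to 3.71) and 2.45 (29 de-crosslinked events, 1.64 to 3.52). Hot-hot events within a chromosome and over 200 kb apart gave 2.36 times (29 interacting events, 1.58 to 3.39) and 1.43 times (31 de-crosslinked events, 0.974 to 2.03). Cold-cold events between chromosomes gave 12.8 times (6 interacting events, 4.69 to 27.8) and 4.14 times (2 de-crosslinked events, 0.501 to 14.9). Hot-cold events between chromosomes gave 2.26 times (24 interacting events, 1.45 to 3.37) and 1.02 times (18 de-crosslinked events, 0.602 to 1.61). The expected number of hot-cold events did not separate hot ends from cold ends, which were one-sided less often. That number is therefore too high, and both hot-cold ratios are too low. With limits of 70% and 80% in place of 75%, the ratio for member events was 1.77 and 3.66 in the interacting library versus 1.67 and 2.40 in the de-crosslinked library. Outside the 10 regions the limit of 80% left 1 interacting event against 0.836 expected and 3 de-crosslinked events against 1.31 expected. Neither these ratios nor the shares of one-sided windows above were recomputed without the events found in both libraries.

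Hot regions with at least 1 one-sided window (176 of 451) had a median of 14 member events in the interacting versus 30 in the de-crosslinked library, and the other 275 regions 5 interacting and 10 de-crosslinked events; region width was not accounted for.

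Leaving out every event with a one-sided end lowered the preference of hot for hot in both libraries. This removed 5.40% of events in the interacting versus 5.77% in the de-crosslinked library, and the log2 odds ratio of hot with hot was then 0.31 ± 0.05 in the interacting versus 0.16 ± 0.03 in the de-crosslinked library, with a difference of 0.15 ± 0.06. With the limit at 70%, which removed 11.9% of interacting and 12.3% of de-crosslinked events, the values were 0.23 ± 0.05 (interacting) and 0.12 ± 0.04 (de-crosslinked) and the difference 0.11 ± 0.06. Per the labels' protocols, the ligated DNA was amplified before sequencing; the part of ligation and amplification in the joining of one-sided ends was not tested.

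**Figure D2:**
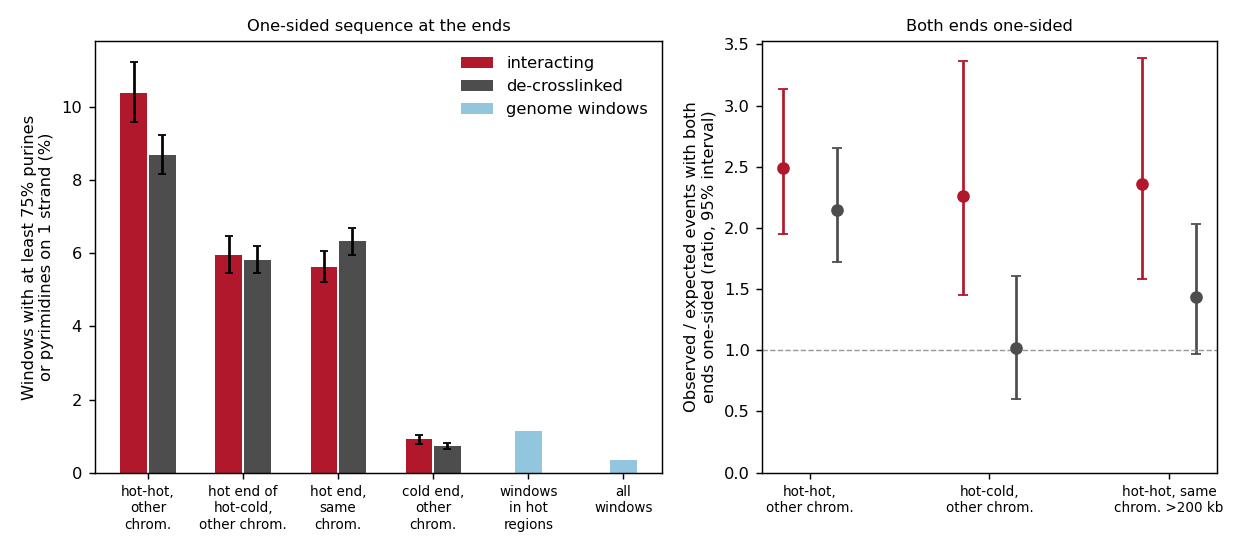
Left, share of 121 bp windows with at least 75% purines or pyrimidines on 1 strand (y axis, %, bars with exact 95% intervals) around 4 classes of event ends (x axis) in the interacting (red) and de-crosslinked (grey) library, and in windows of the genome (blue, no interval). Right, observed over expected number of events with both ends one-sided (y axis, ratio with 95% Poisson interval) for 3 classes of events, with a dashed line at 1. The hot-cold ratios are too low, because their expected number does not separate hot from cold ends. Ends of hot pairs between chromosomes reach 10.4% (interacting) and 8.69% (de-crosslinked), above the other classes of ends, and their ratios on the right are 2.49 (interacting) and 2.15 (de-crosslinked).

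A known hotspot sequence was about as common at member ends as elsewhere in hot regions. The motif TGACGT, read on both strands, is the core of the element bound by the Atf1-Pcr1 factor at the M26 class of fission yeast hotspots. It was present in 2.09% (1.73% to 2.51%) of member windows in the interacting library versus 2.43% (2.15% to 2.74%) in the de-crosslinked library. Hot ends joined to cold ends of other chromosomes held it in 2.05% of interacting (1.75% to 2.37%) and 2.92% of de-crosslinked windows (2.66% to 3.19%), and of tiled windows 2.28% in hot regions and 1.90% in the whole genome hold it.

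By annotation, member ends lay less in coding sequence than other hot ends. Coding sequence held 26.6% (25.4% to 27.8%) of member ends in the interacting library versus 28.1% (27.3% to 29.0%) in the de-crosslinked library, against 32.4% (31.8% to 33.1%) of the other interacting and 30.8% (30.3% to 31.3%) of the other de-crosslinked hot ends. Noncoding RNA genes outside coding genes held 31.7% (30.5% to 32.9%) of member ends in the interacting library versus 34.2% (33.3% to 35.1%) in the de-crosslinked library, against 29.7% (29.0% to 30.3%) of the other interacting and 32.9% (32.4% to 33.4%) of the other de-crosslinked hot ends. All positions in hot regions were 43.6% coding sequence and 21.6% noncoding RNA genes.

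Single hot regions took part in member events over a wide range, and the 2 libraries gave much the same order. A region had a median of 7 member events in the interacting library (0 to 105) and 13 in the de-crosslinked library (1 to 216). It was joined to a median of 7 other regions in the interacting library, at most 67, and to a median of 13 in the de-crosslinked library, at most 113. Across the 451 regions the member events of the 2 libraries correlated with Pearson's r = 0.918 and Spearman's rho = 0.814, a description across regions that share the rule, the antibody and the genome. Member events followed the total of event ends of a region closely (r = 0.932 in the interacting versus 0.961 in the de-crosslinked library). The 10 regions with most member events held 13.5% of member ends in the interacting library versus 13.6% in the de-crosslinked library. The 10 regions with most hot ends of any kind held 11.2% of all hot ends in the interacting library, compared with 12.8% in the de-crosslinked library.

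**Figure D3:**
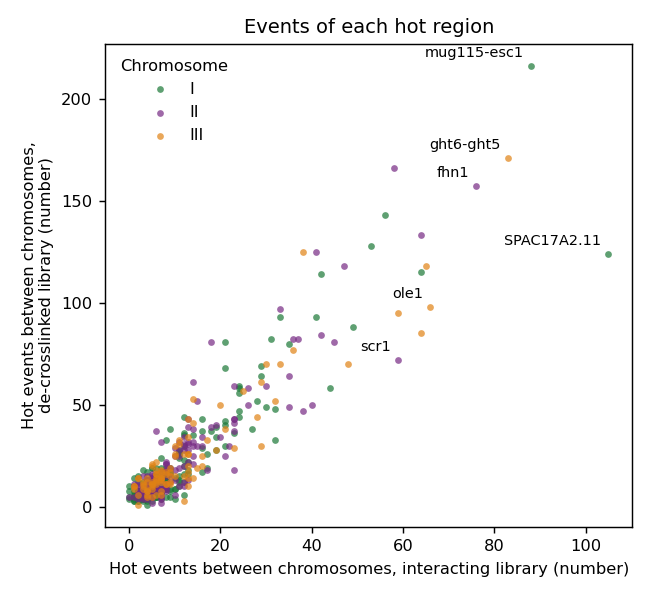
Number of member events of each of the 451 hot regions in the interacting (x axis) and de-crosslinked (y axis) library, coloured by chromosome; each point is 1 region, and 6 regions are labelled by genes they hold. The region with SPAC17A2.11 leads the interacting library with 105 interacting events against 124 de-crosslinked, while the region of mug115 and esc1, with 88 interacting events against 216 de-crosslinked, leads the de-crosslinked library.

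The region with most member events in the interacting library was chrI:3571832-3581807, which holds csx1, SPAC17A2.10C, SPAC17A2.11 and rrp1. Csx1 is an RNA-binding protein of the stress response. It had 105 events with 67 partner regions in the interacting library versus 124 events in the de-crosslinked library. The region of mug115 and esc1 (chrI:1147142-1155770) had 88 interacting and 216 de-crosslinked events. Esc1 is a transcription factor of sexual differentiation. The region of ght6 and ght5 (chrIII:205659-213794), which encode hexose transporters, had 83 interacting and 171 de-crosslinked events. The region with SPBC1685.17 and fhn1 (chrII:520613-527913) had 76 interacting and 157 de-crosslinked events. These 4 regions lie on all 3 chromosomes, and each had more events in the de-crosslinked library, which is the larger of the 2 libraries.

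The next 6 regions in the interacting library had from 59 to 66 member events there. The region of ole1, which encodes the fatty acid desaturase, had 66 events in the interacting versus 98 in the de-crosslinked library. The region of dis1, which encodes a microtubule-binding protein, and pil1, which encodes a core component of eisosomes, had 65 interacting and 118 de-crosslinked events. The region of wtf21, a gene of the spore-killer family, and amt1, which encodes an ammonium transporter, had 64 interacting and 85 de-crosslinked events. The region of pfl2 had 64 interacting and 115 de-crosslinked events, that of dbl7, rtn1 and but2 had 64 interacting and 133 de-crosslinked, and that of clg1 and scr1, which encodes a repressor of glucose-repressed genes, had 59 interacting and 72 de-crosslinked.

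No single region passed the test for a difference between the libraries. For each region the share of its event ends that were member ends was compared between the libraries by two-sided Fisher's exact tests with Benjamini-Hochberg adjustment over the 451 regions. At an adjusted p under 0.05, 0 regions were called (0%), and the smallest adjusted p was 0.807. An unadjusted p under 0.05 was found for 21 of the 451 regions, 3 higher and 18 lower in the interacting library. This share is below the 5% that may pass such a limit when no region differs, so these regions are not read as differences. The median log2 odds ratio over the 451 regions was -0.36. For the SPAC17A2.11 region the member share was 29.3% in the interacting versus 24.5% in the de-crosslinked library, a log2 odds ratio of 0.35 (exact Fisher p, adjusted by Benjamini-Hochberg, 0.881). Copies of a junction that were not merged, and shared junctions, are not part of this test's error.

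Genes of the lists were unevenly placed in hot regions. The lists were chosen with earlier results of these data known and a hot region is the authors' class, so the counts describe and test nothing. Of all 5113 annotated protein-coding genes, 1447 (28.3%) overlap a hot region, and the median region has 7 member events in the interacting versus 13 in the de-crosslinked library. Of 15 annotated genes of sexual differentiation and meiosis, 7 overlap a hot region, and the median of these regions was 42 interacting and 114 de-crosslinked member events. They include ste11, which encodes the master transcription factor of sexual development, with 58 interacting and 166 de-crosslinked events, gti1 with 53 interacting and 128 de-crosslinked, ste7 with 42 interacting and 114 de-crosslinked and esc1 with 88 interacting and 216 de-crosslinked. The region of mei2, which encodes the RNA-binding protein that starts meiosis, had 11 interacting and 12 de-crosslinked events, so the genes of this list do not share a level. Of 16 nutrient transporter genes 10 overlap a hot region, with a median of 24 interacting and 47 de-crosslinked events; isp4, a peptide transporter gene, had 40 interacting and 50 de-crosslinked.

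Highly expressed and stress genes lay in hot regions more often than all coding genes, with medians below that of the sexual differentiation list. Of 12 highly expressed genes 10 overlap a hot region, with a median of 15 interacting and 32 de-crosslinked events, from 2 interacting and 7 de-crosslinked events at hsp90 to 36 interacting and 82 de-crosslinked at eno101, which encodes enolase. Of 12 stress genes and targets of Atf1-Pcr1, 9 overlap a hot region, with a median of 9.5 interacting and 18 de-crosslinked events; atf1 had 14 interacting and 30 de-crosslinked, and hsp16, a small heat-shock protein gene, had 7 interacting and 32 de-crosslinked. Of 15 genes of linear elements and break formation, 2 overlap a hot region: rec7, needed for break formation, with 12 interacting and 26 de-crosslinked events, and rec12, deleted in both cultures, with 4 interacting and 10 de-crosslinked.

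Most pairs of hot regions were joined by 1 event or by none. Of the 65034 possible pairs of hot regions on different chromosomes, 2439 were joined in the interacting library versus 4523 in the de-crosslinked library. In the interacting library 221 pairs (0.34% of all) were joined by 2 or more events, against 201 expected from the end counts of the regions, and in the de-crosslinked library 666 pairs (1.02%) against 652 expected. With Poisson counts in place of fixed end counts, 224.6 interacting and 681.7 de-crosslinked pairs were expected, more than were observed. The observed and expected counts also depended on the linking distance. With lines linked within 200 bp, it was 310 interacting pairs against 220 expected and 861 de-crosslinked pairs against 718. Within 1000 bp it was 190 interacting pairs against 187 and 591 de-crosslinked pairs against 606. Counts at 4 or more events were not recomputed at these distances. In the interacting library 41 pairs had 3 or more events against 30.9 expected, and 16 pairs had 4 or more against 6.43 expected (2.49 times, interval 1.42 to 4.04). In the de-crosslinked library 184 pairs had 3 or more events against 162 expected, and 64 pairs had 4 or more against 52.5 expected (1.22 times, 0.938 to 1.56). Of the pairs joined by 2 or more events, 82 were the same pairs in both libraries, which is 37.1% of those of the interacting and 12.3% of those of the de-crosslinked library. The overlap expected from the end counts of the regions was not computed. Regions with many events were largely the same in both libraries, and the libraries share junctions. The overlap therefore does not show a preference for particular pairs.

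The count of pairs joined by 4 or more events was recomputed without shared junctions, without one-sided ends and without regions sharing a 30-base word; the last left it at 16 in the interacting library. Without events found in both libraries, 7 pairs had 4 or more events in the interacting library against 3.72 expected (1.88 times, interval 0.756 to 3.88), and 33 had 3 or more against 21.2 expected (1.55 times, 1.07 to 2.18). Without events with a one-sided end, 1 pair had 4 or more against 1.06 expected, and 17 had 3 or more against 9.46 expected (1.797 times, 1.05 to 2.88). In the de-crosslinked library the ratios at 3 or more events were 1.09 (0.926 to 1.28) without shared events and 1.15 (0.932 to 1.41) without one-sided ends. Whether the 2 libraries differ in this excess was not tested.

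**Figure D4:**
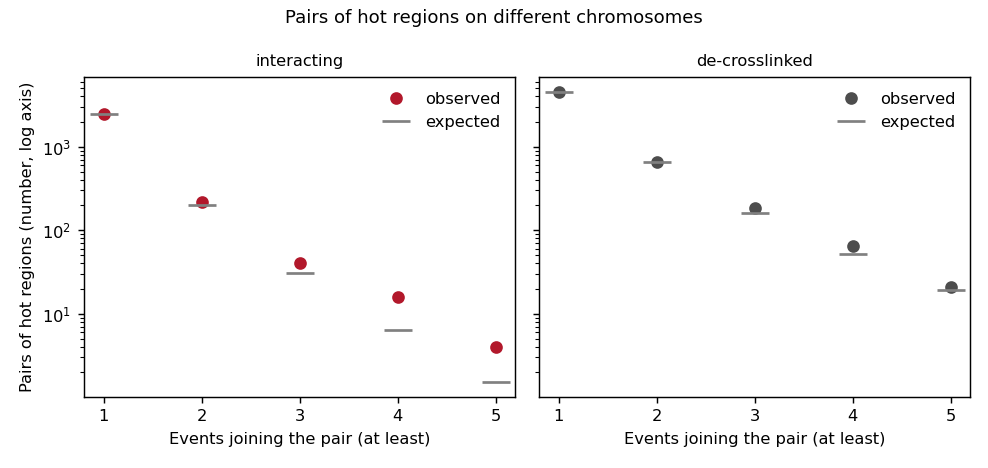
Number of pairs of hot regions on different chromosomes (y axis, log scale) joined by at least 1 to 5 events (x axis), observed (points) and expected from the end counts of the regions (bars), in the interacting (left, red) and de-crosslinked (right, grey) library. At 4 or more events the interacting library has 16 pairs against 6.43 expected and the de-crosslinked library 64 against 52.5.

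The pair with most events in the interacting library joined the SPAC17A2.11 region to the dis1 and pil1 region (chrIII:344641-355182). It had 7 events from 98 lines in the interacting library, against 2.06 events expected, and 3 events from 56 lines in the de-crosslinked library, against 1.85 expected. Of these lines, 90 in the interacting versus 53 in the de-crosslinked library belong to 1 linked event placed at position 3577776 on chromosome I in both libraries, inside SPAC17A2.11, and at 348199 (interacting) and 348187 (de-crosslinked) on chromosome III, between dis1 and pil1. It is the largest member event of each library. The lines of this event span 184 bp on chromosome I and 1030 bp on chromosome III in the interacting library, and 652 bp and 637 bp in the de-crosslinked library, so they may hold several junctions. A second event of this pair, at 3576763 and 348124, was also found in both libraries, and its sequences are the first 2 shown above.

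The other leading pairs were smaller. The SPAC17A2.11 region was joined to the rtn1 and but2 region by 6 events in the interacting library (1.92 expected) and by 2 in the de-crosslinked library (2.66 expected). The pfl2 region was joined to the fhn1 region by 5 interacting and 5 de-crosslinked events (1.67 interacting and 3.19 de-crosslinked expected) and to the ght6 and ght5 region by 5 interacting and 7 de-crosslinked events (1.42 interacting and 1.87 de-crosslinked expected). The region of pma1, which encodes the plasma membrane proton pump, was joined to the isp4 region by 4 interacting events and 1 de-crosslinked event (0.382 interacting and 0.587 de-crosslinked expected). The region of pabp, which encodes the poly(A)-binding protein, was joined to the region of oca2 and gnr1 by 4 interacting and 2 de-crosslinked events (0.611 interacting and 0.597 de-crosslinked expected). In the de-crosslinked library 2 pairs shared the highest count, that of pfl2 with ght6 and ght5 given above and that of the esc1 and fhn1 regions, which had 1 event in the interacting library versus 7 in the de-crosslinked library (2.19 interacting and 4.92 de-crosslinked expected). The gti1 and ste11 regions were joined by 2 interacting and 6 de-crosslinked events (1.15 interacting and 3.05 de-crosslinked expected). Counts this small are imprecise, with an exact Poisson interval of 2.81 to 14.4 for 7 events.

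The shares of the 3 pairs of chromosomes among member events did not pass the test for a difference between the libraries. Chromosomes I and II held 50.8% (48.9% to 52.7%) of member events in the interacting versus 52.3% (51.0% to 53.6%) in the de-crosslinked library. Chromosomes I and III held 29.6% of interacting (27.8% to 31.3%) and 27.6% of de-crosslinked member events (26.4% to 28.8%). Chromosomes II and III held 19.7% of interacting (18.2% to 21.2%) and 20.1% of de-crosslinked member events (19.1% to 21.2%). The log2 odds ratios were -0.09, 0.14 and -0.04 in this order, with p = 0.295, 0.193 and 0.66 (two-sided Fisher's exact tests, Benjamini-Hochberg adjusted over the 3 pairs). With every line counted in place of events, so that copies count as separate joins, the log2 odds ratio was 0.29 for chromosomes I and III and -0.25 for II and III (Fisher's exact tests, Benjamini-Hochberg adjusted p = 3.049e-08 and 1.772e-05). Joins between chromosome arms were close to random, from 0.964 to 1.03 times the expected number in the interacting compared with 0.967 to 1.04 times in the de-crosslinked library.

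Hot ends near chromosome ends had a hot partner on another chromosome less often in the interacting library. Of hot event ends within 200 kb of a chromosome end, 18.3% (16.8% to 19.97%) were member ends in the interacting library versus 24.6% (23.3% to 26.0%) in the de-crosslinked library, where the make-up of hot ends gives 23.6% (interacting) and 25.8% (de-crosslinked). The observed shares were thus 0.776 (interacting) and 0.956 (de-crosslinked) times the expected ones. These ends were joined within 200 kb of themselves in 19.6% (18.0% to 21.3%) of cases in the interacting library versus 4.38% (3.75% to 5.09%) in the de-crosslinked library. Their partner was a cold end of another chromosome in 36.75% (34.8% to 38.8%) of interacting and 39.7% (38.2% to 41.3%) of de-crosslinked cases. Hot ends away from chromosome ends and centromeres were joined within 200 kb in 16.3% of interacting and 5.06% of de-crosslinked cases, and to hot ends of other chromosomes in 21.4% of interacting and 24.9% of de-crosslinked cases. They were joined to cold ends of other chromosomes in 32.8% (32.1% to 33.4%) of interacting and 36.1% (35.6% to 36.6%) of de-crosslinked cases. Near centromeres, here the longest stretch of each chromosome without an annotated coding gene, 25.5% (23.7% to 27.4%) of hot ends were member ends in the interacting library versus 27.8% (26.3% to 29.3%) in the de-crosslinked library, 1.11 times the expected share in both.

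**Figure D5:**
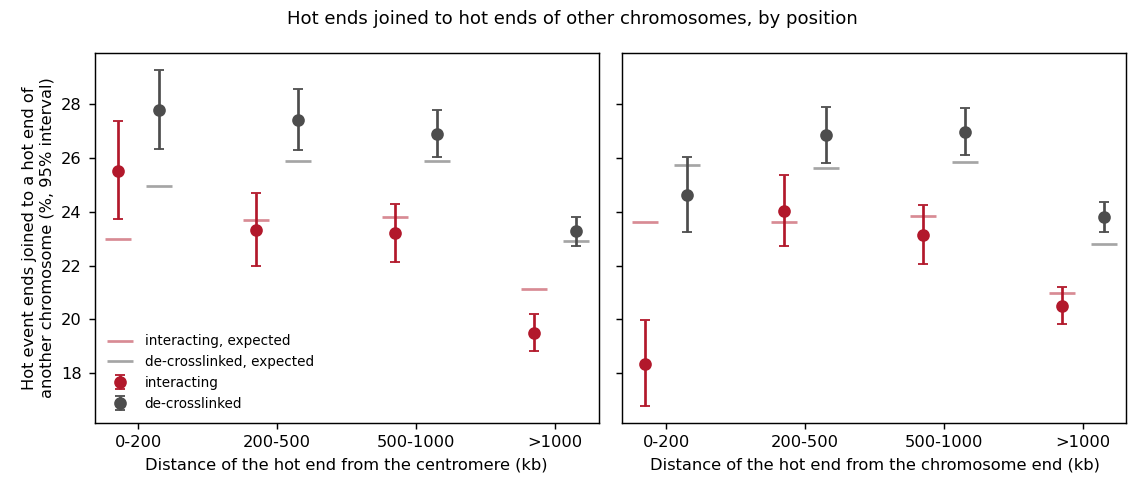
Share of hot event ends that were joined to a hot end of another chromosome (y axis, %, points with exact 95% intervals) by the distance of the end from its centromere (left) and from the nearest chromosome end (right, x axes in kb) in the interacting (red) and de-crosslinked (grey) library; horizontal bars give the share expected from the number of ends on each chromosome. Within 200 kb of chromosome ends the share is 18.3% in the interacting library, below its expected 23.6%, and 24.6% in the de-crosslinked library.

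In the interacting library, the hot partners that such ends had on other chromosomes were near chromosome ends more often than expected. In the de-crosslinked library the interval of the ratio included 1, but neither reading held under every setting. In the interacting library 25 member events had both ends within 200 kb of a chromosome end, against 14.3 expected from the distances of the member ends (1.75 times, interval 1.14 to 2.59), and in the de-crosslinked library 47 against 36.8 (1.28 times, 0.939 to 1.70). Nearly the whole excess in the interacting library joined chromosomes I and II, with 14 events against 4.26 expected, beside 17 against 10.2 in the de-crosslinked library. Between chromosomes I and III it was 7 interacting events against 6.71 and 18 de-crosslinked events against 16.97, and between II and III 4 interacting events against 3.28 and 12 de-crosslinked events against 9.65. The share of member events with both ends near chromosome ends did not pass the test for a difference between the libraries, at 0.918% in the interacting versus 0.860% in the de-crosslinked library (log2 odds ratio 0.10, two-sided Fisher's exact test, p = 0.845, Benjamini-Hochberg adjusted over 4 position results). At a limit of 100 kb it was 5 interacting events against 1.92 expected (2.61 times, 0.846 to 6.08) and 6 de-crosslinked events against 6.33 expected (0.949 times, 0.348 to 2.07). At a limit of 400 kb the ratios were 1.16 (0.955 to 1.38) in the interacting versus 0.983 (0.853 to 1.13) in the de-crosslinked library.

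Of the 14 events between chromosomes I and II in the interacting library, several lay at the left end of chromosome I around ght3, a gene of the hexose transporter family. One joined ght3 itself, at 84031, to ght4 at 158677 on chromosome II, and the de-crosslinked library also had an event of these 2 genes, at 83218 and 158046. The ght3 and ght4 regions share a word of 30 bases, and the part of read placement was not tested. Others joined the space between SPAPJ695.01C and ght3 to the neighbourhood of icl1 (82608 and 168611) and of pcl1 (78903 and 166535). At the other end of chromosome I, the space between hry1 and sul2, a sulfate transporter gene, was joined to pho841 on chromosome II in an event of 24 lines (5504343 and 134989). Of the regions nearest to the 6 chromosome ends, that of hry1 and sul2 had 4 interacting and 8 de-crosslinked member events, that of SPAC977.12 3 interacting and 5 de-crosslinked, and that of SPBPB2B2.06C, the highest, 15 interacting and 52 de-crosslinked.

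Near the centromeres the difference between the libraries did not pass the test after adjustment. Both ends lay within 200 kb of a centromere in 39 member events of the interacting library, against 30.1 expected (1.29 times, 0.920 to 1.77), and in 45 of the de-crosslinked library, against 47.0 (0.957 times, 0.698 to 1.28). These were 1.43% of interacting and 0.823% of de-crosslinked member events, a log2 odds ratio of 0.81 (two-sided Fisher's exact test, p = 0.01396 unadjusted and 0.0558 after Benjamini-Hochberg adjustment over the 4 position results). The call depended on the setting. Adjusted p was 0.0485 with lines linked within 200 bp and 0.03022 with a limit of 400 kb, where the interacting events came to 0.991 times the expected number (0.830 to 1.17). With a limit of 100 kb the log2 odds ratio was 0.01 (exact Fisher p, adjusted by Benjamini-Hochberg, 1). Without the region with most member events in each library, which are the SPAC17A2.11 region at 170 kb from its centromere and the esc1 region, it was 23 interacting events against 17.4 expected and 32 de-crosslinked events against 33.9, a log2 odds ratio of 0.55 (exact Fisher p, adjusted by Benjamini-Hochberg, 0.666). Among the regions closest to the centromeres there were 9 interacting and 38 de-crosslinked events at per1 on chromosome I, 5 interacting and 10 de-crosslinked at crr1 on chromosome II and 9 interacting and 15 de-crosslinked at rxt3 on chromosome III.

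Ends at like distances along their chromosomes were joined at close to the expected number. In 386 member events of the interacting library the distances from the 2 centromeres differed by at most 200 kb, against 385 expected, and in 709 of the de-crosslinked library, against 716. For distances from the chromosome ends it was 417 interacting events against 393 and 828 de-crosslinked events against 789. The shares did not pass the test for a difference between the libraries, with log2 odds ratios of 0.15 and 0.02 and p = 0.277 and 0.845 (two-sided Fisher's exact tests, Benjamini-Hochberg adjusted over the 4 position results).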

How the data were processed

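Fission yeast chromatin bound by Rec27-GFP was ligated before (interacting) or after (de-crosslinked) crosslink removal, 1 library each, per the labels' protocols; DNA was amplified with a Sequenase kit and sequenced as Nextera libraries. Per the submitters' processing notes CASAVA 1.8.0 was used; the aligner, build and the rule for hot and cold are not given in the sources used here. The deposited tables hold, for each joined pair, the chromosome, position and the authors' class of each end; they hold no score, and how pairs were curated is not given in the sources used here.

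Lines were linked within 500 bp at both ends, chromosome pair and class into events. Expected numbers are products of end counts; for pairs of regions they come from fixed end counts (hypergeometric), because Poisson counts overstated them on simulated data. The odds of hot with hot are Mantel-Haenszel estimates. Centromeres are the longest stretches without a coding gene in ASM294v3, and near means within 200 kb. Scripts were tested on simulated joins. Python 3.11.15, numpy 2.4.6 and scipy 1.17.1 were used. Named pairs and regions are the 10 with most events (ties by fewer events in the other library), the regions nearest to centromeres and chromosome ends, and gene lists. The members and lists were chosen with earlier results of these data known, and the one-sided sequence limit after seeing the sequences. Alternatives changed the linking, the distance limit, the events or regions left out and the pool of ends.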

Additional observations from a re-analysis of the deposited data

How the results depend on the processing

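The smaller share of hot pairs between chromosomes in the interacting library kept its direction and passed the test under all 9 alternatives, with log2 odds ratios from -0.71 to -0.37. The ratio to random joining in the interacting library, 0.963 with events, was 0.871 with every line counted, 0.843 with only events of 2 or more lines, 0.924 without events with a one-sided end and 1.12 from the ends of events that join chromosomes; for the de-crosslinked library it was 1.00 with every line counted. With every line counted, the log2 odds ratio was 0.29 for the share of chromosomes I and III and -0.25 for that of II and III, both past the threshold. For pairs with both ends near centromeres the threshold was passed with every line counted (0.81), lines linked within 200 bp (0.81), a limit of 400 kb (0.45) and without regions sharing a 30-base word (0.82), and not under the other 7. The difference at matched distance from the centromeres, not past the threshold, changed sign with every line counted (-0.06003), with only events of 2 or more lines (-0.0004995) and without chromosome III (-0.01893). Pairs of hot regions joined at least 2 times by events, 221 in the interacting versus 666 in the de-crosslinked library, came to 898 (interacting) and 2108 (de-crosslinked) with every line counted, 23 (interacting) and 151 (de-crosslinked) with only events of 2 or more lines, 124 (interacting) and 366 (de-crosslinked) without chromosome III, and 41 (interacting) and 184 (de-crosslinked) for 3 or more events; without one-sided ends the interacting count was 133. The causes were not tested, beyond the fewer or more joins these alternatives count. Alternatives on shared junctions, one-sided ends, 30-base words and the pool of ends were chosen after seeing the data. No paired analysis was possible because each group has 1 library. Results near centromeres or chromosome ends rest on 25 to 47 events per library.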

Other observations

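Hot regions that share sequence were joined more often than their end counts give in the interacting library. Of the 65034 pairs of hot regions on different chromosomes, 273 (0.420%) share a word of 30 bases. They were joined by 54 events in the interacting library against 29.95 expected (1.803 times, Poisson interval 1.35 to 2.35) and by 55 events in the de-crosslinked library against 44.1 expected (1.25 times, 0.940 to 1.63). These events lay in 48 pairs in the interacting versus 45 in the de-crosslinked library. The leading pair holds tef103 on chromosome II and tef101 on chromosome III, paralogous genes for translation elongation factor EF-1 alpha, with 3 interacting and 2 de-crosslinked events. One event was nearly the same in both libraries, with ends at 626966 and 269095 in the interacting versus at 626967 and 269095 in the de-crosslinked library. Reads of near-identical genes can be placed on either copy, so these positions are uncertain, and the part of read placement in this result was not tested. The ght3 and ght4 regions also share such a word and were joined by 1 interacting and 2 de-crosslinked events. Other pairs that share a word hold different genes. One is the SPAC17A2.11 region with the wtf21 and amt1 region, joined by 1 interacting and 2 de-crosslinked events. Whether the shared words lie in duplicated genes or in one-sided stretches was not tested.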
